A study of Mus musculus with 1094 samples.

Results

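The comparison sets newborn neurons of the E16.5 mouse cortex against the basal progenitors of the same day, cell by cell. Every cell deposited for the 2 groups was taken if at least 1000 genes reached 1 TPM (a gene's share of a cell's transcripts after correction for length, on a fixed total). This kept 79 of 89 basal progenitor (BP) cells and 63 of 63 newborn neuron (NBN) cells, 142 in all, of 1071 cells that passed the same filter and 1094 deposited cells in the series. Per the labels, both groups were wild-type C57Bl/6 cells from dorsal cortex of Tbr2::GFP embryos, in which GFP reports Eomes (Tbr2), and both were sorted for GFP by flow cytometry. The labels do not say how BP and NBN cells were told apart within that sort, so a difference in Eomes cannot be told apart from the gate that separated them. Neural stem cells (NSC) elsewhere in the series came from Hes5::GFP mice, before and after birth. Single cells were captured and converted to cDNA on the Fluidigm C1 system with the SMARTer kit and sequenced from 1 end. No label ties a cell to an animal, a litter or a chip, so each group is 1 library, cells are units of description only, and no test between the 2 libraries was made.

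Basal progenitors, also called intermediate progenitors, are made by radial glia at the ventricle, divide in the subventricular zone and give rise to most excitatory neurons of the cortex. They are marked by the T-box factor Eomes, which is shut off as their daughters migrate outwards and take on the identity of a cortical layer. A newborn neuron inherits GFP protein from its mother cell, which is why an Eomes reporter can yield neurons as well as progenitors.

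BP cells had fewer detected genes than NBN cells, with a median of 4608 genes at 1 TPM (2365 to 7993) against 5764 (1311 to 7861). Transcripts of the mitochondrial genome took a median of 8.52% of a BP cell's TPM and 5.58% of an NBN cell's. Read depth per cell is unknown, because TPM does not keep it. Markers of other cell types, 3 or more of a list at 10 TPM, were held by 12 BP and 11 NBN cells, some of them on more than 1 list. Cajal-Retzius markers were held by 8 BP and 3 NBN cells and interneuron markers by 2 cells of each library, while Gad1 reached 10 TPM in 0 cells of either. Astroglial markers were held by 1 BP and 8 NBN cells, a count that leans on S100b, which was at 10 TPM or more in 79 of 79 BP and 62 of 63 NBN cells. The 8 meningeal markers summed to between 0 and 61.4 TPM over BP cells and between 0 and 6529 TPM over NBN cells, 1 of which held 3 or more. All cells are labelled female, yet at least 1 of 4 Y-linked genes (Ddx3y, Eif2s3y, Kdm5d, Uty) reached 10 TPM in 35 of 79 BP cells (44.3%, exact Clopper-Pearson 95% interval 33.1 to 55.9) and in 39 of 63 NBN cells (61.9%, 48.8 to 73.9). Xist, the transcript of the inactive X, reached it in 31 BP and 13 NBN cells, and 7 BP and 2 NBN cells held both, so the libraries go against that label and differ in it. The part of sex, of other cell types and of genes per cell in the differences that follow was not tested.

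A size rule stood in for a test. A gene passed if log2(mean TPM over cells + 1) differed by 2 or more (4-fold for well expressed genes), the higher library averaged 10 TPM or more, and the mean over cells of log2(TPM + 1) differed by 1 or more in the same direction. Of 9742 genes that reached 10 TPM in either library, 256 (2.63%) were past the rule with NBN higher and 60 (0.616%) with NBN lower, 316 (3.24%) in all. The median difference of all 9742 genes was 0.14, and 55.8% of them had a positive difference. These shares of all genes are the baseline for every count from a gene list that follows. The excess of higher genes (81.0% of those past the rule) depended on scaling, since quantile normalization of the 2 profiles gave 129 higher and 118 lower genes (52.2% higher). Without cells that held markers of another type the counts were 325 and 102, and among cells with no Y-linked gene at 10 TPM they were 448 and 282.

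Basal progenitor genes were lower in NBN cells. Of 16 genes on that list, 4 were past the size rule and lower (Eomes, Sstr2, Mfng, Mfap4), 13 of 16 differences were negative, and the median difference was -1.19 against 0.14 for all genes. The list's summed level had a median of 764 TPM per BP cell and 64.3 TPM per NBN cell. Eomes, the T-box factor that defines the population, ran from 0 to 2065 TPM over BP cells with a median of 20.3 TPM, and from 0 to 385 TPM over NBN cells with a median of 0.249 TPM. It reached 1 TPM in 64 of 79 BP cells (81.0%, 70.6 to 89.0) and 14 of 63 NBN cells (22.2%, 12.7 to 34.5), and its library mean was 259 TPM in BP and 13.3 TPM in NBN, a log2 difference of -4.18. The ranges overlapped, but 5 NBN cells were at 10 TPM or more against 48 BP cells, and 1 of those NBN cells carried 45.9% of the library's Eomes. Sstr2, a somatostatin receptor that couples to Gi, ran from 0 to 2362 TPM in BP cells and from 0 to 214 TPM in NBN cells. Its mean was 287 TPM in BP and 5.26 TPM in NBN (log2 difference -5.53), and it was at 1 TPM in 49 BP cells (62.0%, 50.4 to 72.7) and 4 NBN cells (6.35%, 1.76 to 15.47). Mfng, a glycosyltransferase that modifies Notch, averaged 119 TPM in BP and 14.54 TPM in NBN, with 25 and 4 cells at 1 TPM. Mfap4, an extracellular matrix protein, averaged 139 and 22.5 TPM, but a single NBN cell held 95.6% of its NBN total. Nhlh1 and Neurod4, bHLH factors of freshly committed neurons, averaged 12.4 and 13.4 TPM in BP and were listed at 0 in all 63 NBN cells, and neither met the criterion on the mean of log values. Neurog2, the proneural factor upstream of Eomes, averaged 18.9 TPM in BP and 9.68 TPM in NBN, short of the rule.

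The 250 bases before the start of 4 genes are shown, since each gene was held by far more cells of one library than of the other: Eomes, Sstr2 and Neurod1 by BP cells and Dync1i1 by NBN cells. Neurod1 was short of the size rule. They are RefSeq promoters on GRCm38.p6, read 5′ to 3′ on the gene's own strand: Eomes at chr9:118477939-118478188 (+), Sstr2 at chr11:113619077-113619326 (+), Neurod1 at chr2:79456637-79456886 (-) and Dync1i1 at chr6:5725389-5725638 (+). Capitals mark matches to any of 6 motifs searched on both strands.
Eomes: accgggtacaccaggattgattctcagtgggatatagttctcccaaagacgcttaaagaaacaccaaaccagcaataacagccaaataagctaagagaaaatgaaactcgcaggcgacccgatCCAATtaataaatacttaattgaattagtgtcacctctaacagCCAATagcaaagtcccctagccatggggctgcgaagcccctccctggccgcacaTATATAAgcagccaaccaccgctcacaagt
Sstr2: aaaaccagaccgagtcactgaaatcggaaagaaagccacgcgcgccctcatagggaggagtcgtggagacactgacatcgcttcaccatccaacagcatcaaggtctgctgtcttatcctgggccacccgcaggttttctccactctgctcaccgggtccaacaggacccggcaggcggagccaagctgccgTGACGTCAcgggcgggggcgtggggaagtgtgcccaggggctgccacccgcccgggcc
Neurod1: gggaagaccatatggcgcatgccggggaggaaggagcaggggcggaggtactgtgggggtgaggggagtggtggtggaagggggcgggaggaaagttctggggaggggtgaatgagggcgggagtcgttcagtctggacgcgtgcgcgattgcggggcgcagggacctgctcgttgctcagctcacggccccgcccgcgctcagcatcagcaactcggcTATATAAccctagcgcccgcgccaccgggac
Dync1i1: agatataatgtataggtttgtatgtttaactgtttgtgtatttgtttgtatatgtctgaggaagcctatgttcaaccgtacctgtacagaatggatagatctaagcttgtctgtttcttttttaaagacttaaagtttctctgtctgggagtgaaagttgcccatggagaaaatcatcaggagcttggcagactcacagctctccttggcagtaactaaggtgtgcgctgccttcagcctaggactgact
Eomes and Neurod1 each held TATATAA, 30 and 31 bases before the RefSeq start, a TATA-type element that 3.04% of 32851 promoters of this length hold. All distances here are from RefSeq starts. In GENCODE M21 (GRCm38) Neurod1 starts at chr2:79456751, inside the window shown and ahead of its TATATAA. Eomes also held CCAAT at 127 and at 84 bases before the start, as do 33.8% of promoters. Sstr2 held the cyclic AMP response element TGACGTCA at 58 bases before the start, present in 1.55% of promoters. The E-box CAGATG, the E-box CAGCTG and the T-box half-site TCACACC were in none of the 4 windows, and in 14.4%, 13.0% and 3.33% of all promoters. Dync1i1 held none of the 6. The TATA-type, CCAAT and cyclic AMP motifs were added to the search after the sequences had been seen.

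**Figure D1:**
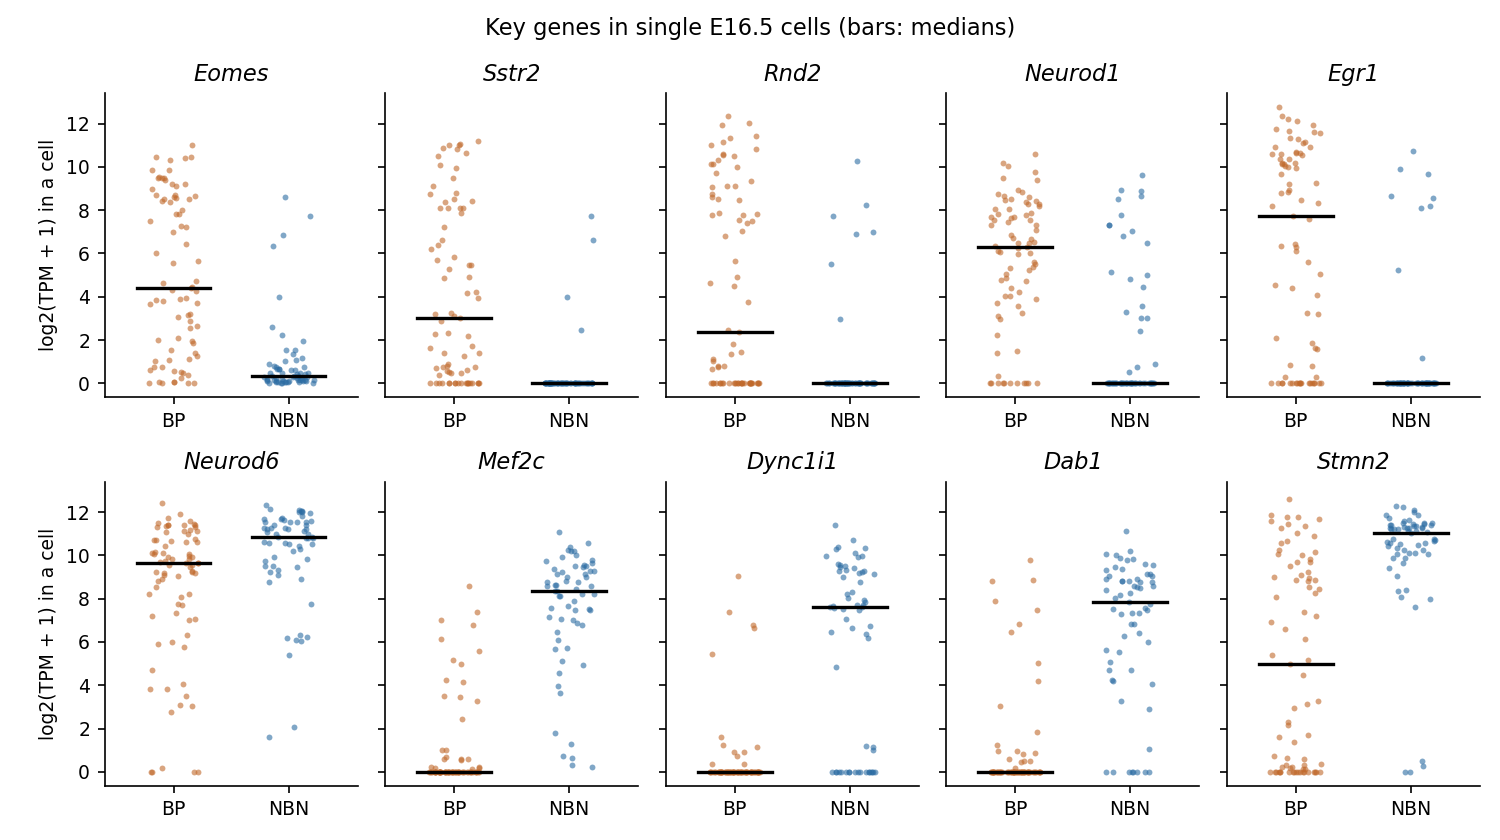
Level of 10 genes in each of 79 BP and 63 NBN cells at E16.5, as log2(TPM + 1), 1 point a cell with the median as a bar. The medians of Sstr2, Rnd2, Neurod1 and Egr1 lie at 0 in NBN cells and those of Mef2c, Dync1i1 and Dab1 at 0 in BP cells, while the ranges overlap for every gene.

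Genes of migration split. Of 21 listed, Rnd2 and Sema3c were past the rule and lower in NBN cells, Dab1 was past it and higher, and the list's median was 0.30. Rnd2, an atypical small GTPase that lets newborn neurons leave the multipolar stage, ran from 0 to 5177 TPM over BP cells (median 4.23) and from 0 to 1230 TPM over NBN cells (median 0). It averaged 508 TPM in BP and 32.2 TPM in NBN (log2 difference -3.94) and reached 1 TPM in 45 BP cells (57.0%, 45.3 to 68.1) and 7 NBN cells (11.1%, 4.59 to 21.6). On GRCm38 (GENCODE M21) the gene lies at chr11:101464999-101471853 (+), that of Eomes at chr9:118478212-118486132 (+) and that of Sstr2 at chr11:113619342-113626028 (+). Sema3c, a secreted semaphorin, averaged 68.7 TPM in BP and 10.1 TPM in NBN. Unc5d, a netrin and Flrt receptor of multipolar cells, was just outside the rule (log2 difference -1.99), with 57 BP and 16 NBN cells at 1 TPM. Dab1, the adaptor through which Reelin acts, showed the reverse pattern. It was at 1 TPM in 12 BP cells (15.2%, 8.10 to 25.0) and 55 NBN cells (87.3%, 76.5 to 94.4), and its mean was 31.2 TPM in BP and 349 TPM in NBN (log2 difference 3.44). Dcx, the microtubule protein of migrating neurons, was at 1 TPM in every cell of both libraries and averaged 495 TPM in BP and 470 TPM in NBN. The 2 Reelin receptors on the list, Lrp8 (160 and 79.2 TPM) and Vldlr (24.0 and 29.7 TPM), were not past the rule.

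Among 16 radial glia genes, 1 was lower (Fabp7) and 1 higher (Ptprz1), with a list median of -0.31. Fabp7, a fatty acid binding protein of radial glia, averaged 223 TPM in BP and 28.7 TPM in NBN and was at 1 TPM in 34 and 5 cells. Ptprz1, a receptor phosphatase, averaged 38.6 TPM in BP and 180 TPM in NBN. The stem cell factors Sox2 (2.80 and 2.52 TPM) and Hes5 (listed at 0 in all cells) were near or at 0 in both libraries. Pax6 averaged 178 TPM in BP and 33.7 TPM in NBN, but its medians were close (33.0 and 26.2 TPM) and 1 BP cell held 26.0% of the BP total. Pax6 was also at 1 TPM in 97.0% or more of the cells of each of the 17 libraries of the series, postnatal NBN libraries included, so its share of cells says little here. Of 18 Notch genes Mfng alone was past the rule, and Notch1, Dll1 and Hes1 averaged under 5 TPM in both libraries. Of 18 Wnt genes Tcf7l2, a transcription factor that binds beta-catenin, was past it and lower (74.7 TPM in BP and 8.52 TPM in NBN). Ctnnb1, beta-catenin itself, averaged 467 TPM in BP and 144.6 TPM in NBN, short of the rule.

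Outside the lists, several regulators were lower in NBN cells. Rmst, a long noncoding RNA that partners with Sox2, was at 10 TPM in 16 BP and 0 NBN cells and averaged 80.0 and 0.276 TPM (log2 difference -5.99). Rasgef1b, an exchange factor for Ras-type GTPases, was at 1 TPM in 65 BP cells (82.3%, 72.1 to 90.0) and 16 NBN cells (25.4%, 15.3 to 37.9), with means of 229 and 9.17 TPM. Zbtb20, a zinc finger repressor active in cortical progenitors, was at 1 TPM in 77 BP and 26 NBN cells, with means of 370 and 43.5 TPM. Mdk, the growth factor midkine, averaged 446 TPM in BP and 89.1 TPM in NBN. The largest difference by the mean, that of Dhrs3 (-7.21), an enzyme of retinoid metabolism, rested on few cells, since 9 BP cells reached 10 TPM and 1 of them held 31.3% of the total. The other genes among the 15 largest with NBN lower were Mad1l1, Dusp14, St18, Mterfd3, Tshz1, Gpr125, Ttyh2 and Slc15a2, with means of 30.6 to 137 TPM in BP and 0.16 to 3.80 TPM in NBN.

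Immediate early and stress genes, which cells switch on quickly after a stimulus, were lower in NBN cells in 13 of 14 cases, with a median difference of -0.78. Of all 9742 genes 55.8% were higher in NBN cells. Only Egr1 was past the rule. It ran from 0 to 6902 TPM over BP cells (median 209) and from 0 to 1714 TPM over NBN cells (median 0), and was at 1 TPM in 56 BP cells (70.9%, 59.6 to 80.6) and 9 NBN cells (14.3%, 6.75 to 25.4). Its mean was 967 TPM in the E16.5 BP library and 57.0 to 343 TPM in the BP libraries of other stages. NBN libraries averaged 76.8 to 837 TPM, so the 2 groups of libraries overlapped for Egr1. Fos averaged 485 TPM in BP and 121 TPM in NBN (log2 difference -1.99), and Hspa5, a chaperone of the endoplasmic reticulum, 464 and 221 TPM. Egr1 and Fos were both at 10 TPM in 41 of 79 BP cells (51.9%, 40.4 to 63.3) and 6 of 63 NBN cells (9.52%, 3.58 to 19.6). The list's summed level had a median of 1682 TPM per BP cell and 335 TPM per NBN cell.

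Layer identity genes split. Of 10 differences of upper layer genes 6 were positive and 4 negative. Of these genes 5 were past the rule and higher, Mef2c, Cux1, Rorb and Inhba among them, and 0 lower, with a median difference of 1.49. Over all genes 2.63% were past it and higher, and 55.8% of differences were positive. Mef2c, a MADS-box factor of postmitotic neurons, ran from 0 to 388 TPM over BP cells (median 0) and from 0.16 to 2193 TPM over NBN cells (median 331). Its mean was 13.2 TPM in BP and 443 TPM in NBN (log2 difference 4.96), it was at 1 TPM in 16 BP cells (20.3%, 12.0 to 30.8) and 59 NBN cells (93.7%, 84.5 to 98.2), and the NBN cell was the higher in 96.1% of all couples of 1 cell from each library. Rorb, a nuclear receptor of layer 4 neurons, averaged 8.62 and 71.7 TPM, and Cux1 41.8 and 191 TPM with 45.9% of the NBN total in 1 cell. Cux2, Pou3f2 and Pou3f3, which mark the same layers, were not past the rule, and Lhx2 was at 99.1 TPM in BP and 34.3 TPM in NBN. Of 9 deep layer genes, Sox5 (46.0 and 209 TPM) and Ldb2 (0.259 and 150 TPM, at 10 TPM in 0 BP and 31 NBN cells) were past the rule and higher, and the median was 1.20. Of the 9 differences 8 were positive, but Tbr1, Bcl11b and Fezf2, the defining factors of deep layers, differed by 0.31, 0.94 and 0.05. Among 11 Sox factors, Sox5 alone was past the rule, with a list median of 0.06.

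The largest differences with NBN higher included genes listed at 0 in all 79 BP cells, for which no fold was taken. Npy, a neuropeptide usually read as an interneuron marker, was at 1 TPM in 20 of 63 NBN cells (31.7%, 20.6 to 44.7) with a mean of 201 TPM, of which 1 cell held 79.9%. Of the 14 NBN cells with Npy at 10 TPM, 13 held Mef2c and 0 held Gad1, the GABA-synthesizing enzyme. Over all 63 NBN cells 57 held Mef2c and 0 held Gad1, so these counts do not set the Npy cells apart. Gucy1b3, a subunit of the nitric oxide receptor guanylate cyclase, was also listed at 0 in BP cells and at 1 TPM in 26 NBN cells (41.3%, 29.0 to 54.4). Its partner subunit Gucy1a3 was at 1 TPM in 1 BP and 34 NBN cells, and 13 NBN cells held both subunits at 10 TPM. Ntsr1, a neurotensin receptor of layer 6 neurons, Mlip and Srsf12 were likewise listed at 0 in BP cells, with NBN means of 33.7, 85.3 and 38.5 TPM. Dync1i1, a dynein intermediate chain of neurons, was at 1 TPM in 8 BP cells (10.1%, 4.47 to 19.0) and 45 NBN cells (71.4%, 58.7 to 82.1), with means of 12.2 and 383 TPM. Ndrg1 (log2 difference 6.42), Cdh13, a cadherin without a transmembrane part (4.82 and 208 TPM), Sybu, a linker of kinesin cargo (1.65 and 110 TPM), and Lrfn5, a synaptic adhesion protein (0.276 and 55.3 TPM) were at 1 TPM in 47.6% to 63.5% of NBN cells and in 1 to 8 BP cells. Fam19a2, Kitl and Inhba were the remaining genes among the 15 largest, with BP means of at most 0.092 TPM and NBN means of 40.0 to 65.1 TPM.

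Neuronal structure and signalling genes followed with smaller differences. All 20 axon and cytoskeleton genes were higher on average in NBN cells, with a median difference of 1.03, but 2 were past the rule (Stmn4 and the neurofilament Nefm). Over all genes 55.8% were higher, 2.63% were past the rule and higher, and 0.616% past it and lower. Stmn2, a growth cone protein that destabilizes microtubules, had a median of 30.4 TPM over BP cells and 2127 TPM over NBN cells, with means of 655 and 1951 TPM. It was at 1 TPM in 49 BP cells (62.0%, 50.4 to 72.7) and 59 NBN cells (93.7%, 84.5 to 98.2). Mapt (tau) averaged 232 and 673 TPM and Gap43 257 and 634 TPM. Of 18 synaptic genes, Syt4 (134 and 604 TPM), Camk2b (20.2 and 112 TPM) and Nlgn1 (2.72 and 79.5 TPM) were past the rule and higher. Slc17a6, the vesicular glutamate transporter of immature neurons, was past it and lower (144 and 23.6 TPM). Of 20 channel and receptor genes, 3 were past the rule and higher, among them the glutamate receptor subunit Grin2b (19.8 and 92.7 TPM), and 0 were lower. Dpf1, the BAF chromatin subunit of neurons, was the single gene of 20 on the list of splicing and BAF genes that passed (24.4 and 146 TPM), while its progenitor counterpart Phf10 averaged 37.0 and 13.47 TPM.

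General neuron markers did not separate the libraries by the rule. None of the 14 newborn neuron genes passed, although 12 were higher in NBN cells and the median difference was 0.85. Neurod6, a bHLH factor of excitatory neurons, averaged 1095 TPM in BP and 1963 TPM in NBN and was at 1 TPM in 74 of 79 and 63 of 63 cells. Tubb3, a neuronal tubulin, averaged 2953 and 4192 TPM. Neurod1, which acts between Neurog2 and Neurod6, ran against the list, with a median of 77.5 TPM over BP cells and 0 TPM over NBN cells. It was at 1 TPM in 67 BP cells (84.8%, 75.0 to 91.9) and 20 NBN cells (31.7%, 20.6 to 44.7), and its log2 difference of means was -1.72. Checked against its label, the BP library thus held Eomes at 1 TPM in 64 of 79 cells, Neurod6 in 74 and a division profile, described next, in 4. At 10 TPM Eomes was held by 48 BP cells, 42 of them with Neurod6, and Neurod6 by 71. Most BP cells thus held a gene of excitatory neurons, and few a division profile. Basal progenitor is the label's name for the library, and how many of its cells were already neurons was not tested.

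Cells that held many division genes were rare on both sides. At least 5 of 20 genes of G2 and mitosis reached 10 TPM in 4 of 79 BP cells (5.06%, 1.40 to 12.46) and 5 of 63 NBN cells (7.94%, 2.63 to 17.6), and these intervals overlap. The most held by 1 cell was 20 of the 20 in BP and 10 in NBN. Another 10 BP and 16 NBN cells held 3 or 4 of them, and single genes were widespread. Ube2c, a ubiquitin-conjugating enzyme of mitosis, had medians of 8.98 TPM over BP and 23.2 TPM over NBN cells, and Birc5 6.82 and 15.2 TPM. Both medians lay above the 10 TPM cut-off in NBN cells alone, so the 2 counts of cells are not like for like. Whether the share of dividing cells differs was not tested. None of the 20 was past the rule. Their median difference was -0.83 and turned to 0.10 when values above each gene's 95th percentile were set to it. Of 20 genes of G1 and S phase none was past the rule either, with a median difference of 0.49. Of 15 genes on a list of cell cycle exit and its control none was past the rule. The list also holds Ccnd2, a D-type cyclin and not itself a gene of exit. The largest gaps in the share of cells at 1 TPM were those of Ccnd2 (56 BP and 14 NBN cells), Cdkn1c, an inhibitor of cyclin-dependent kinases (22 and 39 cells), and Btg2, an antiproliferative gene of neurogenic divisions (46 and 21 cells). None of 18 nuclear genes of the respiratory chain was past the rule, and their median difference was 0.09. Of 16 glycolysis genes Pfkl passed (8.87 and 57.2 TPM, 51.1% of the latter in 1 cell). The 13 protein genes of the mitochondrial genome had a median difference of -0.43, with 11 lower in NBN cells.

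**Figure D2:**
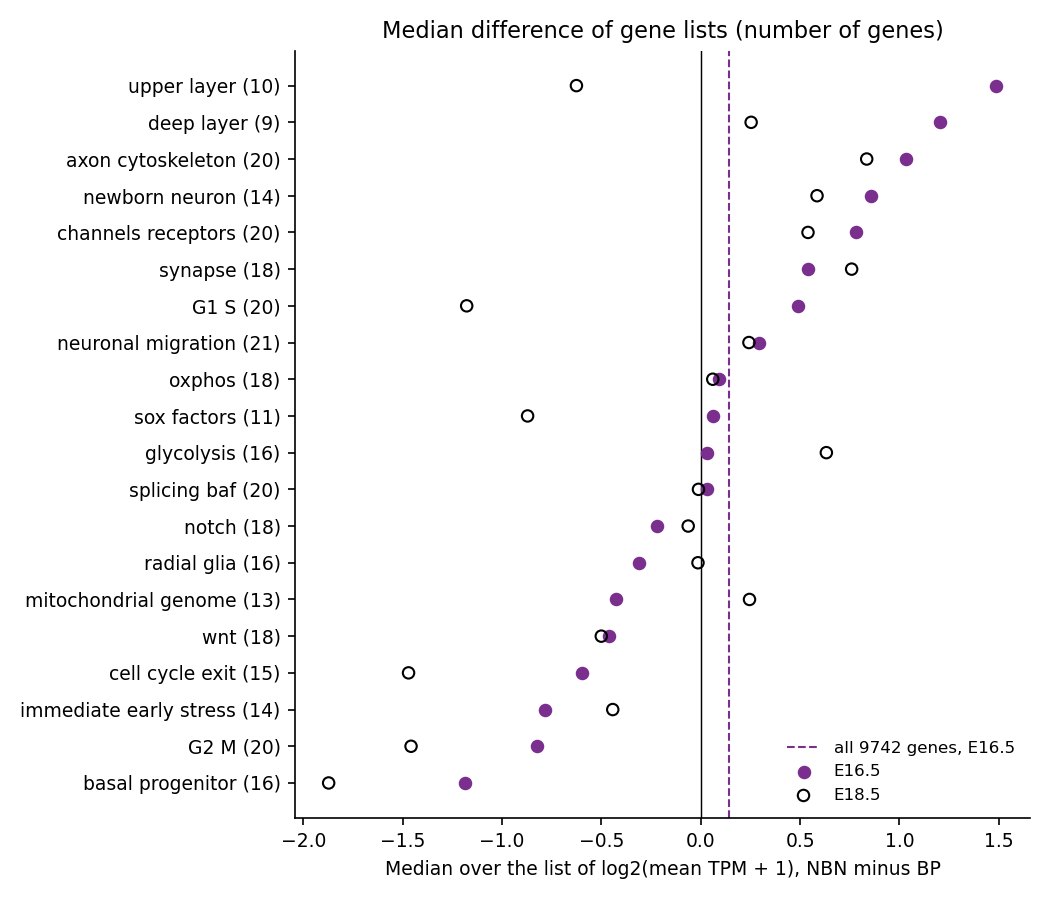
Median over each of 20 gene lists, those of other cell types left out, of the difference in log2(mean TPM + 1) between NBN and BP, at E16.5 (filled) and E18.5 (open), with the number of genes in each list and the median of all 9742 genes at E16.5 as a dashed line. At E16.5, among these 20 lists, basal progenitor genes lie lowest at -1.19 and upper layer genes highest at 1.49, and the latter lie at -0.63 at E18.5.

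Single cells showed how far the 2 programmes were apart. The mean log2(TPM + 1) of the 14 newborn neuron genes minus that of the 16 basal progenitor genes had a median of 4.05 over BP cells (-1.92 to 7.44, SD 2.21, n = 79 cells) and 6.72 over NBN cells (0.20 to 8.33, SD 1.66, n = 63 cells). It was at or below 0 in 4 BP and 0 NBN cells, and the ranges overlapped over most of their length. At 10 TPM, Eomes and Mef2c occurred together in 3 of 79 BP cells (3.80%, 0.79 to 10.7), Eomes without Mef2c in 45 and Mef2c without Eomes in 8. Among NBN cells 4 held both, 1 held Eomes alone and 53 held Mef2c alone. Eomes and Rnd2 were together in 20 BP cells, and 28 held Eomes alone and 18 Rnd2 alone.

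**Figure D3:**
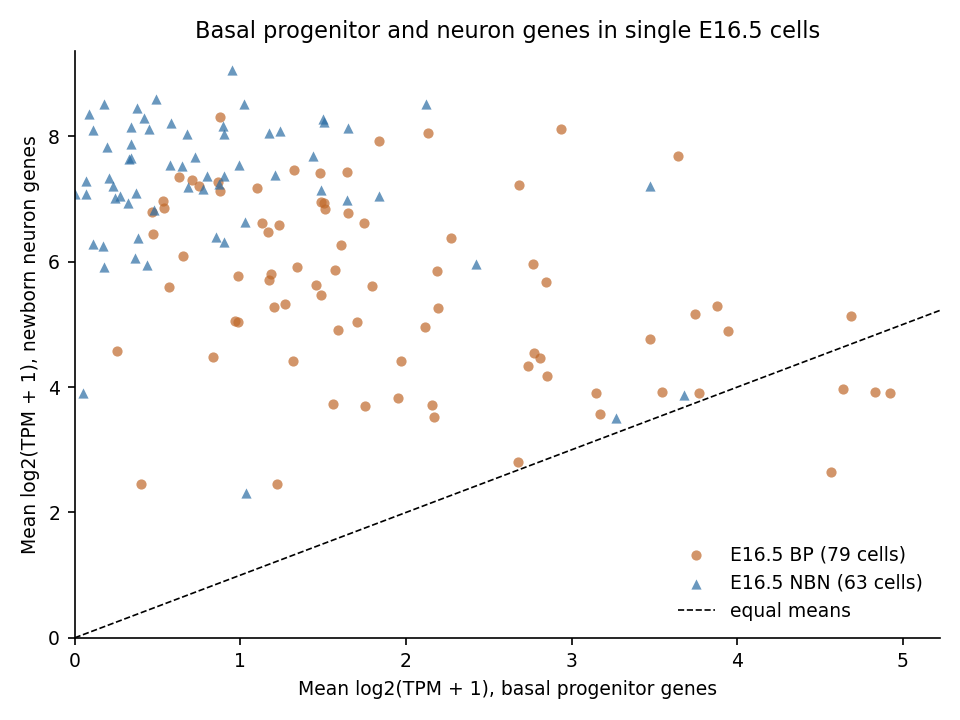
Mean log2(TPM + 1) of 16 basal progenitor genes (x axis) and 14 newborn neuron genes (y axis) in each E16.5 cell, BP as circles and NBN as triangles, with the line of equal means dashed. NBN cells gather at the upper left, at a median of 0.65 for progenitor and 7.36 for neuron genes, against 1.61 and 5.62 in BP cells.

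The same contrast at E18.5 rests on other libraries, 61 BP and 66 NBN cells. There 1.81% of 9691 genes were past the rule with NBN higher and 1.48% (143 genes) with NBN lower. Of the 256 genes higher at E16.5, 53 were also past the rule at E18.5, 20.7% of the E16.5 genes and 30.3% of the E18.5 genes. Of the 60 lower genes, 18 were shared, 30.0% of the E16.5 genes and 12.6% of the E18.5 genes, and 0 genes were past the rule in opposite directions. At E18.5 205 of the 256 (80.1%) had a positive difference, compared with 46.8% of all genes, and 55 of the 60 (91.7%) a negative one, compared with 52.8%. Rnd2 (482 TPM in BP and 12.9 TPM in NBN at E18.5), Eomes (172 and 33.7 TPM), Fabp7 (355 and 23.9 TPM) and Zbtb20 (663 and 130 TPM) were lower at both stages. The E18.5 NBN mean of Eomes rested on 1 cell. That cell, at a log2(TPM + 1) of 11.1, was the only 1 of 66 with Eomes at 10 TPM. Mef2c (1.64 and 496 TPM), Dync1i1 (0.212 and 182 TPM), Dab1 (19.1 and 352 TPM), Ldb2 (0.125 and 79.9 TPM) and Gucy1a3 (listed at 0 and 103 TPM) were higher at both. Sstr2 was not past the rule at E18.5, where NBN cells averaged 146 TPM and BP cells 292 TPM. Cux1 (174 and 121 TPM), Rorb (21.8 and 34.7 TPM) and Sox5 (28.9 and 34.7 TPM) were past the rule at E16.5 and not at E18.5, and the upper layer list had a median of -0.63 there. Whether the 2 stages differ was not tested, with 1 library in each cell of that design. The Y-linked gene Ddx3y was past the rule and higher at both stages; no Y-linked gene reached 10 TPM in any E18.5 BP cell.

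**Figure D4:**
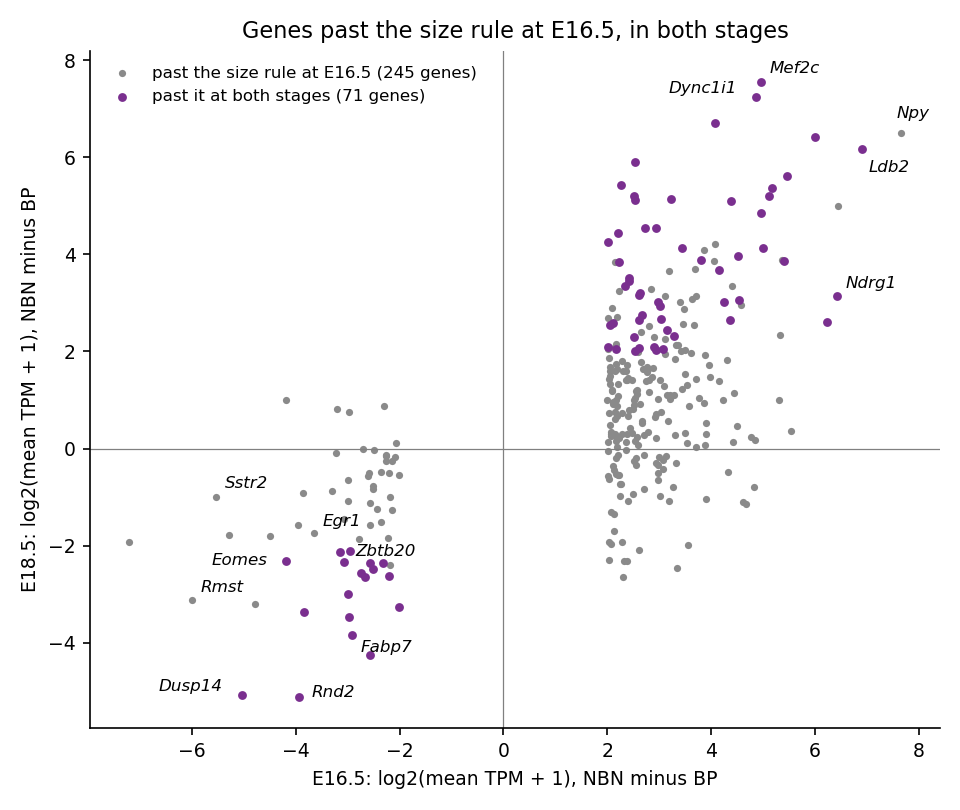
Difference in log2(mean TPM + 1) between NBN and BP at E16.5 (x axis) and at E18.5 (y axis) for the 316 genes past the size rule at E16.5, 71 of them past it in the same direction at E18.5. No gene lies past the rule in opposite directions, and Sstr2, Rmst, Egr1 and Npy are labelled as genes past it at E16.5 alone.

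A replicated test was possible across stages, where 5 BP and 4 NBN libraries stand beside 8 NSC libraries. The E16.5 libraries are among them, so it is no independent check of the E16.5 values. BP libraries ran from E12.5 to P0 and NBN libraries from E16.5 to P3, so population and age are partly confounded. The P1 and P3 NBN libraries had medians of 3189 and 3436 genes per cell. Their median shares of mitochondrial transcripts were 19.6% and 12.9%. The P3 NBN library held markers of another type in 36 of 39 cells. Its log2(mean TPM + 1) of Neurod6 was 2.99, against 10.1 to 10.9 in the other NBN libraries. The NBN ranges below include it. Library means of Rnd2 were 482 to 725 TPM in the 5 BP libraries and 8.09 to 45.5 TPM in the 4 NBN libraries, without overlap. Those of Rmst were 25.0 to 80.0 TPM and 0.041 to 1.99 TPM, those of Eomes 119 to 364 TPM and 0.353 to 33.7 TPM, and those of Sstr2 194 to 323 TPM and 0 to 146 TPM, all without overlap. Those of Mef2c were 1.64 to 126 TPM in BP and 263 to 689 TPM in NBN, also without overlap, while those of Dync1i1 (0.212 to 53.9 TPM and 13.8 to 383 TPM) overlapped. Of 49 named genes 37 overlapped, 9 lay wholly lower in NBN libraries and 3 wholly higher. Ldb2, Cdh13, Ndrg1 and Lrfn5 were among those that overlapped. Another BP library than that of E16.5 reached 86.7, 227, 94.0 and 92.1 TPM for them. NBN libraries lay wholly above BP libraries in 69 of 9742 genes (0.708%) and wholly below in 341 (3.5%).

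With population and age in a limma fit over 17 library means and 14099 genes, 1 gene was higher in NBN (0.00709%) and 3 were lower (0.0213%) at a Benjamini-Hochberg adjusted p under 0.05, and 1298 genes had an unadjusted p under 0.05. Rnd2 fell by 5.00 (log2, SE 0.55, limma adjusted p = 0.000376) and Rmst fell by 4.85 (SE 0.55, limma adjusted p = 0.000376). Mdk fell by 1.76 (SE 0.30, limma adjusted p = 0.0465). Slc22a6, an organic anion transporter, rose by 4.43 (SE 0.71, limma adjusted p = 0.0350), with a mean of 0 in all 5 BP libraries and 6.83 to 240 TPM in NBN libraries, the highest at P3. The meningeal collagen Col3a1 and proteoglycan Dcn were highest in the same library, being at 0 in all 5 BP libraries and at 294 and 608 TPM in the P3 library. They averaged 29.7 and 38.4 TPM in the E16.5 NBN library, 14.2 and 56.5 TPM at E18.5 and 0.264 and 0.178 TPM at P1. Without cells that held markers of another type no gene passed (limma, smallest adjusted p = 0.365, 647 genes at an unadjusted p under 0.05). Differences for Eomes (-4.74, SE 0.98, limma adjusted p = 0.136), Mef2c (4.56, SE 1.01, limma adjusted p = 0.158) and Sstr2 (-4.66, SE 1.52, limma adjusted p = 0.344) did not pass. Of the 4 NBN libraries, that of P3 held markers of another type in 36 of 39 cells and the others in 5 to 11 cells, while 42 of 45 cells of the P0 NSC library and 42 of 47 of the P1 NSC library held them too. Without the P3 NBN library 6 genes were higher and 11 lower. Without the P1 NBN library 10 were higher and 6 lower, and without the E14.5 BP library 1 and 5. Mdk and Slc22a6 each lost their call 11 times when the 17 libraries were dropped singly. Rnd2 and Rmst passed in each of the 17 fits that left out 1 library, but neither passed with stage as a factor (limma, smallest adjusted p = 0.0951 over all genes) or with the 9 BP and NBN libraries alone (limma, 0.0620).

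**Figure D5:**
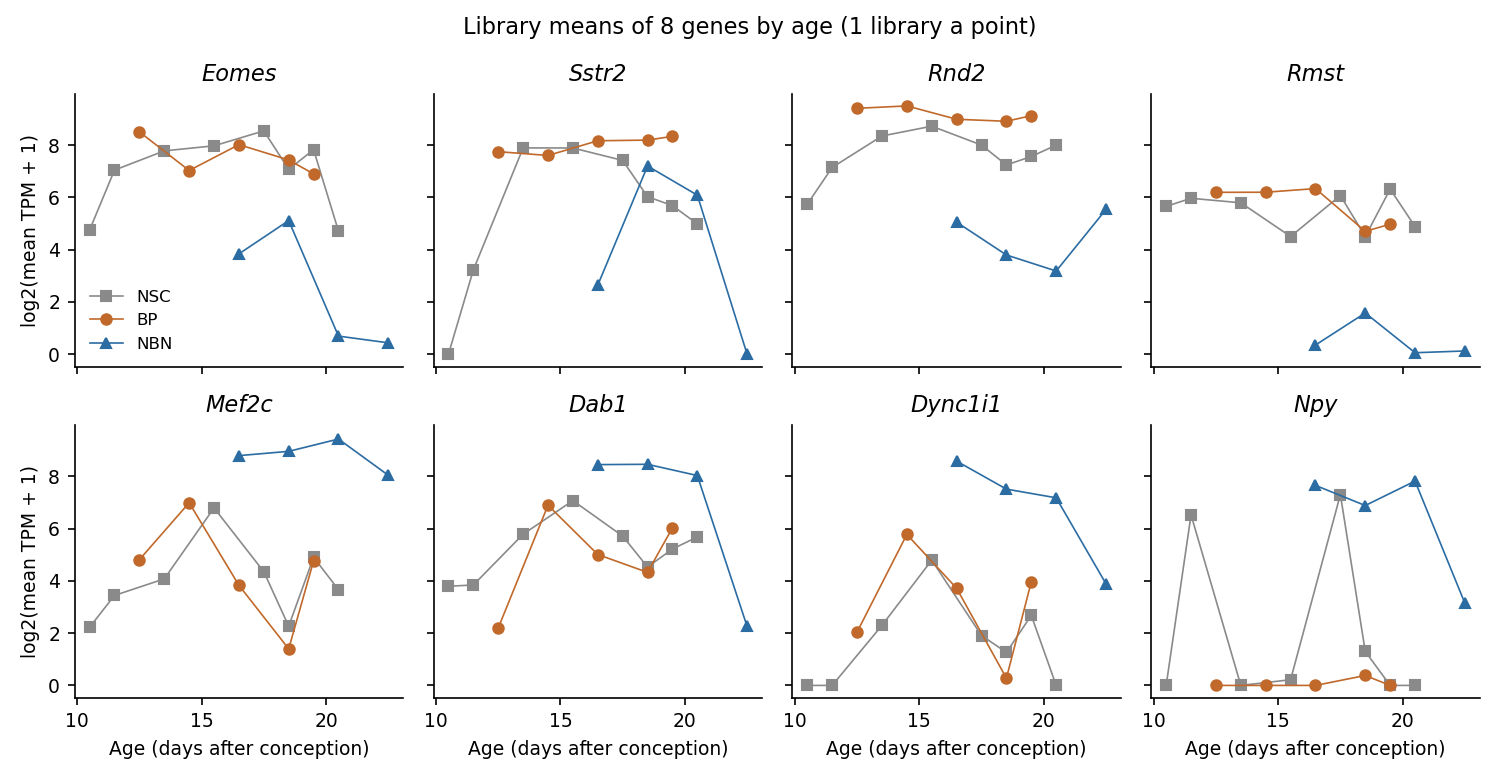
log2(mean TPM + 1) of 8 genes in each of 17 libraries against age, with NSC as squares, BP as circles and NBN as triangles. The 4 NBN libraries lie below all 5 BP libraries for Eomes, Sstr2, Rnd2 and Rmst and above them for Mef2c and Npy.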

How the data were processed

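Single-cell RNA-seq tables of 17 libraries were used, each with 23078 genes. Transcripts were quantified by the authors as TPM, with kallisto 0.43.0 and the builds GRCm38.p2 and mm10 named per the submitters' processing notes. The deposited tables hold TPM except for 7 near-empty columns of whole numbers (4 in the E16.5 BP table), taken as a score of unknown scale in the deposited files and left out by the minimum of 1000 genes at 1 TPM. TPM keeps no depth, so counting error per gene is unknown, and intervals on shares of cells (exact Clopper-Pearson, 95%) cover the sampling of cells only. No 2 cell columns of the E16.5 tables were identical.

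With 1 library a side, the size rule took the place of a test (log2 scale, pseudocount 1). Genes named in the text are the 15 largest differences in each direction past the rule that are not unnamed gene models (20 higher and 1 lower of these were counted only), a list of key genes, and the members of each list with the largest differences. Slc22a6, Dcn, Col3a1 and some list members with small differences were added after their values were seen. The members and lists were chosen with earlier results of these data known. A cell with 5 or more of 20 division genes at 10 TPM was given a division profile. Doublets were not called. Some genes are not reported here.

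Library means, as log2(mean TPM + 1), were fitted with limma 3.58.1 (R 4.3.3) on population and age for 14099 genes that reached 1 TPM in at least 4 libraries, with Benjamini-Hochberg adjustment, and postnatal libraries were set at 18.5 days plus their labelled age, which is 1, 2 and 4 days for those titled P0, P1 and P3. No label says that cells or libraries came from separate animals, so its p-values measure only the spread between these libraries. Scripts ran in Python 3.11.15 with NumPy 2.4.6, pandas 2.3.3 and SciPy 1.17.1, and the fit was tested on simulated data. Alternatives were other pseudocounts, medians, capped values, other cell sets, quantile normalization, other minimum means, other designs and each library left out. The alternative without cells holding Y-linked genes was chosen after seeing the data.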

Additional observations from a re-analysis of the deposited data

Results flagged for a closer look

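In 98 groups of libraries over 49 named genes, 12 (12.2%) held a library whose gap to the others was large for the group's range. Of these, 0 was an E16.5 library. Chance gives about 1 in 20 for independent values of 1 kind. These groups span ages and share libraries, so the 12.2% cannot be read as an excess. All values are log2(mean TPM + 1). The P3 NBN library stood apart for 5 genes. It was low for Neurod6 at 2.99, for Tbr1 at 0.0075 and for Tubb3 at 8.72, and high for Ttyh2 at 8.18 and for Egr1 at 9.71. Among BP libraries, that of E14.5 was high for Inhba at 0.836, for Ntsr1 at 1.03 and for Hes5 at 0.505. The E18.5 BP library was high for Npy at 0.380, where the other 4 were listed at 0, and low for Mterfd3 at 3.17. Rasgef1b was low in the E12.5 BP library at 6.66, and Hes5 was high in the P1 NBN library at 0.514. The flagged values of Hes5, Npy, Inhba and Ntsr1 lie near the floor, at means of 0.301 to 1.04 TPM.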

How the results depend on the processing

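The 2 counts of genes past the size rule (256 higher, 60 lower) moved with most choices. They were 58 and 20 with a pseudocount of 10, 456 and 136 with one of 0.1, 519 and 28 with medians over cells, 129 and 118 after quantile normalization, 770 and 529 by the mean criterion alone, and 448 and 282 without cells holding a Y-linked gene, an alternative chosen after seeing the data. Higher genes were 432 with values above the 95th percentile capped and 130 with a minimum mean of 50 TPM. Lower genes were 98 in cells with 4000 to 7000 genes and 102 without cells holding markers of another type. Of 490 differences of 49 named genes under 10 alternatives 56 moved and 10 had the opposite sign, all in Dcx, Dll1, Sox2 and Top2a, which were not past the size rule. Of the 310 from the 31 genes past it, 0 had the opposite sign and 16 were at 0. The median of the 20 G2 and mitosis genes turned from -0.83 to 0.0997 with capped values; the cause was not tested.

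The limma counts (1 higher, 3 lower) were 0 and 1 with a pseudocount of 10. With no filter and with all deposited cells 0 genes were higher, and with means of log2 values 3 were. They were 0 and 0 with stage as a factor (smallest adjusted p = 0.0951, 1039 genes at an unadjusted p under 0.05), with the 9 BP and NBN libraries alone (0.0620, 699 genes) and without cells holding markers of another type (0.365, 647 genes). Leaving out 1 library at a time gave 0 to 10 higher and 2 to 11 lower genes. Outside those fits Rnd2 was lost in 3 of 8 alternatives and Rmst in 5 of 8. Mdk and Slc22a6 were less stable. Mdk was lost in 7 of the 8 alternatives and Slc22a6 in 6. Dropping the 17 libraries singly cost each of these 2 genes its call 11 times. No paired analysis was possible because the numbers in the titles are cell numbers and name no shared animal. With 1 library a side at E16.5, no spread between replicates is known, and TPM keeps no depth.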
